A study of Mus musculus with 6 samples.

Results

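The genes described here are 34 integrins and leukocyte adhesion molecules, taken by gene symbol from a fixed list. That list was chosen with earlier results of these data known. All 34 were among the 24062 genes counted in each library. They comprise 16 integrin alpha subunits, 7 integrin beta subunits, 4 genes of the selectin system, 5 adhesion genes of the immunoglobulin type and the 2 intracellular activators *Tln1* and *Fermt3*. RNA was sequenced from CD31+ckit+ cells that were sorted from the aorta-gonad-mesonephros (AGM) region of E10.5 mouse embryos, in 3 libraries of intermediate (G2Vi, here Vmed) and 3 of high (G2Vh, here Vhigh) Venus fluorescence. All embryos had the genotype Gata2Venus (heterozygous for the reporter, by the study's methods) on the strain C57BL/6JOlaHsd and received no treatment. Venus is translated from an internal ribosome entry site placed behind *Gata2*, so the fractions are CD31+ckit+ cells of different reporter level. CD31 and ckit together mark the cells that bulge from the aortic wall and form clusters on it, the emerging hematopoietic progenitor and stem cells. The number of embryos behind a library was not given in the sources used here.

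Integrins are receptors of 1 alpha and 1 beta chain that tie a cell to extracellular matrix or to other cells, and talin and kindlin switch them on from inside the cell. Blood cells roll on a vessel wall through selectins and their glycoprotein ligands and then hold on through integrins that bind ICAM and VCAM proteins on endothelium. In the aorta the same molecules stand on both sides of a transition, since a cell leaving the endothelium loosens its hold on neighbours and matrix and takes up the adhesion repertoire of a circulating blood cell. The question of the comparison was which of these genes differ between cells of intermediate and of high *Gata2* reporter level.

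Gene counts per library ranged from 8296831 to 12035206, and levels are given as counts per 1000000 of that total (CPM). A count of 3 corresponds to 0.249 to 0.362 CPM and is taken as the smallest number to be shown, for counting error only. Genes with at least 1 count numbered 10427 in Vhigh replicate 1 and 12709 to 18460 in the other libraries. Fold changes are log2 values of Vhigh over Vmed from edgeR's quasi-likelihood test across 12688 genes, with TMM factors from 0.92 to 1.15, and SE is the standard error of that fold change. *Gata2* itself had 50.3, 29.4 and 68.4 CPM in Vmed replicates 1, 2 and 3 and 39.2, 82.5 and 142 CPM in Vhigh, lower in Vhigh in replicate 1 and higher in replicates 2 and 3. *Kit* had at least 59.1 CPM and *Pecam1*, which encodes CD31, at least 118 CPM in each library. Markers of other cell types also moved with the fractions. The summed level of 14 macrophage markers was 1294 to 2776 CPM in Vmed and 288 to 1100 CPM in Vhigh, and 13 of 14 had a fitted level below Vmed. Summed mesenchyme markers had 1746 to 5248 CPM in Vmed and 281 to 643 CPM in Vhigh, with 8 of 9 tested genes lower in the fit. The defining markers at 0 were *C1qa* and *Timd4* for macrophages, both in Vhigh, and *Twist1* and *Tbx18* for mesenchyme, in libraries of both fractions. Summed hematopoietic progenitor markers had 172 to 403 CPM in Vmed and 621 to 1453 CPM in Vhigh, with 10 of 10 higher in the fit, *Kit* among them, which the sort selects for. Their part in the results on adhesion genes was not tested, and in bulk libraries fewer cells of a type and less RNA per cell cannot be told apart.

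Of the 34 adhesion genes, 15 had counts in all 6 libraries, 27 had enough counts to be tested and 7 (*Itga7*, *Itga10*, *Itgax*, *Itgb4*, *Itgb6*, *Sele* and *Selp*) did not. None of the 27 passed an adjusted p of 0.05, and of all tested genes 0% passed. At an unadjusted p under 0.05 there was 1 adhesion gene, *Cd44* (3.70% of 27, against 2.04% of all tested genes). Fitted levels were higher in Vhigh for 13 and lower for 14, with a median log2 fold change of -0.02, the same as the -0.02 over all tested genes. For 22 of the 27 the fold change was smaller than its SE. In CPM, Vhigh lay wholly above Vmed for 2 of the 27 genes, *Cd44* and *Selplg* (7.41%, against 4.15% of all tested genes), and wholly below for 1, *Itgb5* (3.70%, against 4.71%). The adjusted p of this test was 0.9998 for each tested adhesion gene other than *Cd44*, and is not repeated below.

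**Figure D1:**
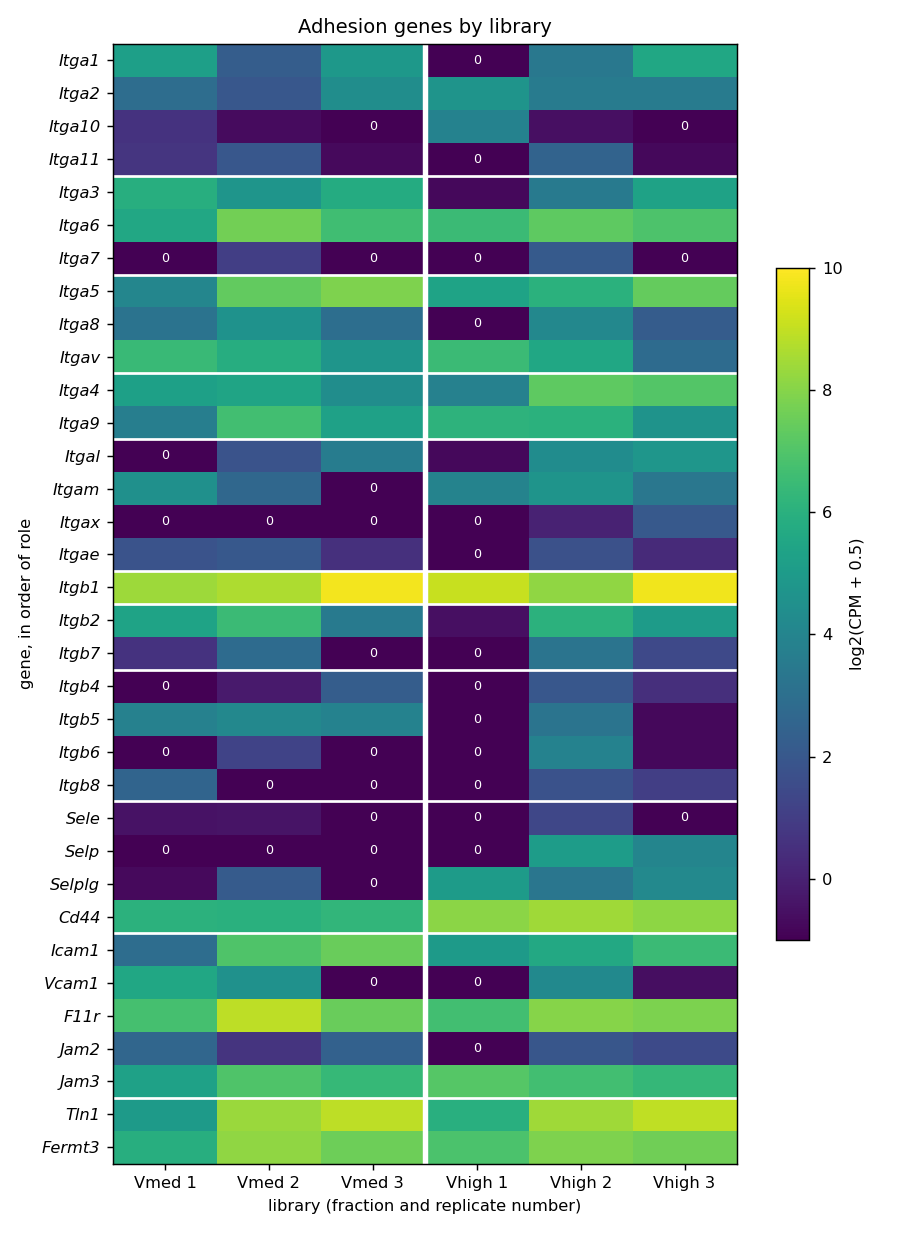
Level of the 34 adhesion genes in each library as log2(CPM + 0.5), with genes in order of role (white lines part the roles) and 0 written where a library had no count. *Cd44* is the brightest row that changes at the line between fractions, while Vhigh replicate 1 has no count for 15 of the 34 genes.

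*Cd44*, the receptor for hyaluronan and a carrier of selectin ligands on blood cells, gave the only large difference with little spread. It lies on chromosome 2 of GRCm38, from 102811141 to 102901665 on the minus strand. Vmed replicates 1, 2 and 3 had 66.6, 62.4 and 74.7 CPM, and Vhigh replicates had 272, 342.5 and 278 CPM. Every Vhigh library was therefore above every Vmed library, and the lowest Vhigh value was 3.64 times the highest Vmed value. The means were 67.9 ± 6.26 CPM (SD, n = 3) in Vmed and 297 ± 39.1 CPM (SD, n = 3) in Vhigh, 4.38-fold apart. Same-numbered libraries differed 4.09-, 5.49- and 3.72-fold. The log2 fold change was 2.09 (SE 0.44) at an unadjusted p of 0.00103, and edgeR's quasi-likelihood test gave an adjusted p of 0.962. The fold change stayed between 2.00 and 2.17 with any library left out. An exact two-sided permutation test over the libraries gave p = 0.1, the smallest that 3 against 3 allow.

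The replicate numbers 1 to 3 recur in Vmed and Vhigh, and libraries of one number deviated together from their fraction means. With the replicate number as a block the log2 fold change of *Cd44* was 2.09 (SE 0.27), with an adjusted p of 0.565 from the quasi-likelihood test. In the likelihood ratio test with the block its adjusted p was 0.00293, and *Cd44* was then the 1 adhesion gene of 27 to pass, against 0.583% of all tested genes (74 of 12688). Among integrin beta, integrin alpha and immunoglobulin-type genes none passed in that test. By sequence length, as CPM per kilobase of exon (RPKM), *Cd44* had 10.02 ± 0.92 (SD, n = 3) in Vmed and 43.9 ± 5.77 (SD, n = 3) in Vhigh.

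The sequence before the start of *Cd44* is shown because it was the only adhesion gene at an unadjusted p under 0.05, though not past the adjusted threshold. That of *Itgb5* is shown because it is the gene whose fractions were parted in the other direction. Both are the 250 bases upstream of the RefSeq gene start in GRCm38.p6, read 5′ to 3′ on the gene's strand, at chr2:102901666-102901915 (minus strand) for *Cd44* and chr16:33829415-33829664 (plus strand) for *Itgb5*. Capitals mark every match on either strand to GATAA (GATA factors), TGTGGT (RUNX factors) or GGAAG (ETS factors), motifs picked for the factors of this cell type.
Cd44: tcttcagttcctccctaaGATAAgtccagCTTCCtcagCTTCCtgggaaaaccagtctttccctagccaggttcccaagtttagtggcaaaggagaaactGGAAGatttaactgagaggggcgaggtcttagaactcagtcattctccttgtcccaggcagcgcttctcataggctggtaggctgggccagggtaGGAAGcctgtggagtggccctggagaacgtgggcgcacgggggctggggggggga
Itgb5: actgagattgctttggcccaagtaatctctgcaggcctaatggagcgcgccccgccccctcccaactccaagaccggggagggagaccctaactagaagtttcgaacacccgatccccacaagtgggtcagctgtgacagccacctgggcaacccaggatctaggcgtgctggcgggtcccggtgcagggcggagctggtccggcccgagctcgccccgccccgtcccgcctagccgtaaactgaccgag

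The *Cd44* window held 1 GATAA, 232 bases from the gene start, and 4 GGAAG, 2 on each strand. The *Itgb5* window held none of the 3 motifs and had a GC content of 65.2%, against 56.4% for *Cd44*. The table of promoters held 26 windows of 24 of the 34 adhesion genes. GATAA was in 3 of the 26 (*Cd44*, *Itgax* and *Sele*; 11.5%), against 22.6% of all 32851 windows of this length. TGTGGT was in 3 (*Fermt3*, *Itga3* and *Itga4*; 11.5%), against 14.0% of all windows, and GGAAG in 19 (73.1%), against 64.1%. These are matches of letters and no record of binding.

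The other genes of the selectin system are those through which blood cells tether to endothelium. *Selplg* encodes PSGL-1, the main selectin ligand of leukocytes, and lies on chromosome 5 from 113818536 to 113832644. It had 0.114, 3.98 and 0 CPM in Vmed replicates 1, 2 and 3, which is 1, 33 and 0 counts, and 32.5, 9.39 and 17.9 CPM in Vhigh. All Vhigh libraries were above all Vmed libraries, but the closest pair, replicate 2, differed only 2.36-fold. Its log2 fold change was 3.95 (SE 1.93, unadjusted p = 0.0972) and ranged from 3.31 to 8.16 with single libraries left out, the highest without Vmed replicate 2. *Selp* encodes P-selectin, which endothelium and platelets carry. It had no count in the 3 Vmed libraries or in Vhigh replicate 1, and 33.7 and 15.5 CPM in Vhigh replicates 2 and 3. The mean of Vhigh was at least 48.5-fold higher than the 3-count limit in Vmed, yet one Vhigh library was as empty as Vmed, so the fractions overlapped. The exons of *Selp* share 438 bases with another counted gene, *Gm16548*, and the strand setting of the counting is not given in the sources used here. *Sele*, the endothelial E-selectin, had at most 2 counts in any library other than Vhigh replicate 2, which had 22.

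Summed megakaryocyte and platelet markers had 627 to 1224 CPM in Vmed and 196 to 531 CPM in Vhigh, the opposite order to *Selp*. Of these 12 markers, 9 were fitted lower in Vhigh, and 5 of the 12 (*Ppbp*, *Gp1ba*, *Gp1bb*, *Gp6* and *Tubb1*) had no count in Vhigh replicate 1. Summed endothelial markers had 1360 to 5835 CPM in Vmed and 1057 to 3925 CPM in Vhigh, with 11 of 12 lower in the fit. Summed granulocyte and mast cell markers had 358 to 575 CPM in Vmed and 822 to 1301 CPM in Vhigh, with 5 of 6 tested genes higher in the fit and 1 lower. *Mpo* made up most of this sum (272 to 493 CPM in Vmed and 584 to 1130 CPM in Vhigh). *Prtn3* had 23.3, 26.9 and 20.3 CPM in Vmed and 126, 133 and 62.1 CPM in Vhigh, without overlap. *Cpa3* had 11.1, 3.62 and 0 CPM in Vmed and 137, 23.9 and 11.1 CPM in Vhigh, higher in each pair. *Prg2* had 30.8, 49.2 and 0 CPM in Vmed and none in Vhigh. *S100a8* was lower in Vhigh in each pair, and *Ctsg* was at 0 in each library. Their part in these results was not tested.

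**Figure D2:**
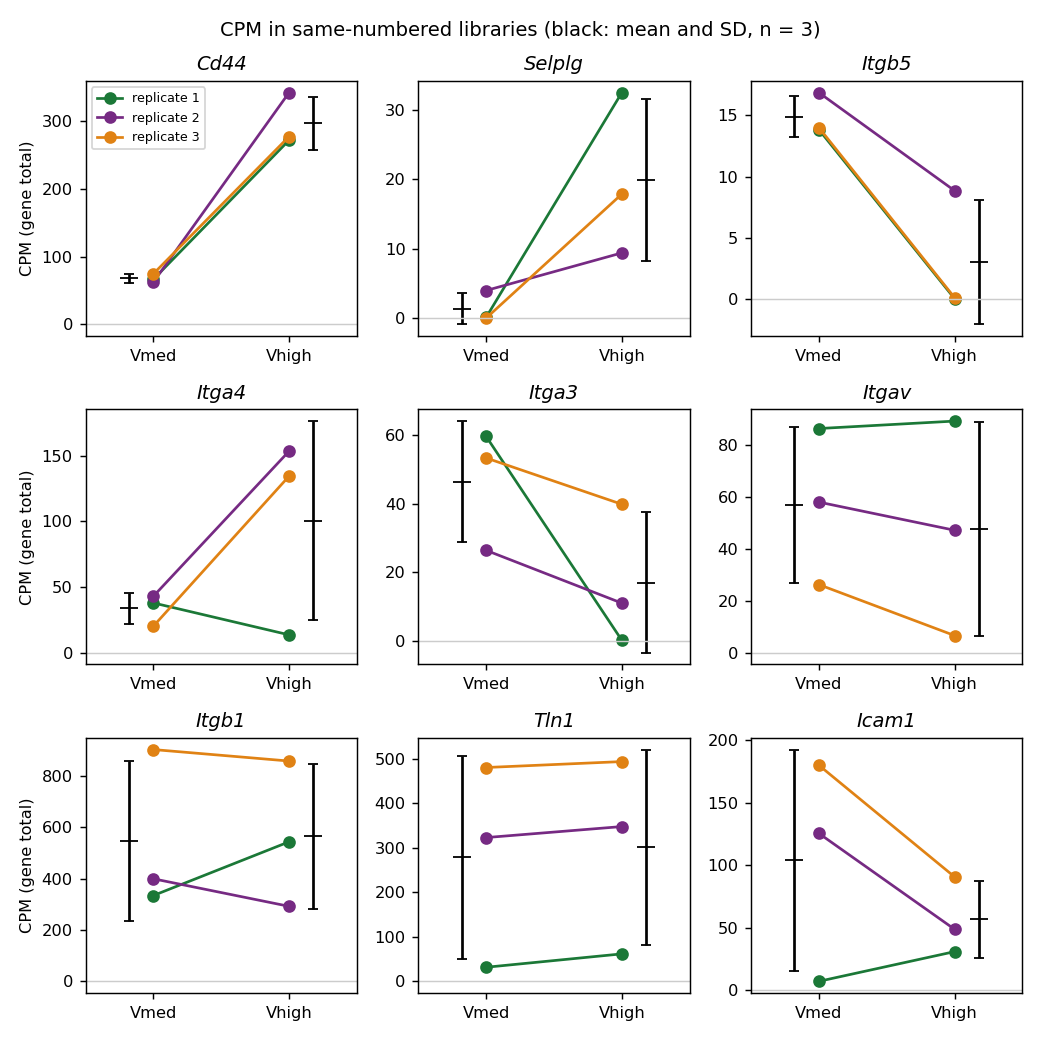
CPM of 9 adhesion genes in Vmed and Vhigh, with lines joining same-numbered libraries and black marks for the mean and SD (n = 3). The lines of *Cd44* run up together from 62.4 to 74.7 CPM to between 272 and 342.5 CPM, whereas those of *Itgav*, *Itgb1* and *Tln1* start far apart by replicate number in Vmed, and the fractions overlap.

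Among integrin beta subunits, *Itgb1*, which pairs with most alpha chains and which hematopoietic stem cells need to seed the fetal liver, was by far the most abundant. It had 334, 399 and 902 CPM in Vmed replicates 1, 2 and 3 and 543, 292 and 858 CPM in Vhigh. The fractions overlapped over their whole range, with a log2 fold change of 0.05 (SE 0.57), and both libraries of replicate 3 were above the other 4. Per length, *Itgb1* made up 70.3% to 99.95% of the summed RPKM of the 7 beta genes and was first in each library. Its fitted direction turned when Vmed replicate 1 or 2 or Vhigh replicate 3 was left out.

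*Itgb2*, the shared beta chain of the leukocyte integrins, had 41.4, 89.8 and 10.6 CPM in Vmed and 0.188, 66.6 and 32.4 CPM in Vhigh replicates 1, 2 and 3. It was the second beta gene by RPKM in 5 of the 6 libraries, with at most 21.8% of the sum. The near absence from Vhigh replicate 1 rested on 2 counts, and the fractions otherwise overlapped. *Itgb7*, which pairs with alpha 4 or alpha E, stayed at or under 9.02 CPM. Its counts were 9, 55 and 0 in Vmed and 0, 98 and 26 in Vhigh.

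*Itgb5*, the partner of alpha V in many adherent cells, was the member with the evenest level in Vmed after *Cd44*, at 13.8, 16.9 and 14.0 CPM. Vhigh replicates had 0, 8.84 and 0.0831 CPM, all below Vmed, and the value of replicate 3 is a single count. The means were 14.9 ± 1.71 CPM (SD, n = 3) and 2.97 ± 5.08 CPM (SD, n = 3). The log2 fold change of *Itgb5* was -2.52 (SE 2.09, unadjusted p = 0.279, exact permutation p = 0.1), and -8.10 without Vhigh replicate 2. The summed mesenchyme markers were also lower in every Vhigh library than in every Vmed library, and their part in this result was not tested. *Itgb4*, *Itgb6* and *Itgb8*, chains of epithelial and other adherent cells, were each without a count in at least 2 libraries and reached at most 4.22, 14.0 and 5.26 CPM. The highest value of *Itgb6*, 14.0 CPM, was in Vhigh replicate 2 alone.

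The integrin alpha genes gave a mixed picture of low and uneven levels, with 6 of 13 tested genes fitted higher in Vhigh, 7 lower and a median log2 fold change of -0.02. *Itga5*, the fibronectin receptor chain, and *Itga6*, a laminin receptor chain, led the 16 listed alpha genes by RPKM. *Itga5* was first among the 16 in 3 libraries and *Itga6* in 2, and in Vmed replicate 1 *Itga3* was first. *Itga2b*, which is not one of the 16, was above *Itga6* in replicate 3 of both fractions and below it in replicates 1 and 2. In replicate 3 its RPKM were 16.2 against 10.7 in Vmed and 29.9 against 13.4 in Vhigh.

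*Itga6*, long used as a marker of stem cells, had 48.3, 204 and 97.0 CPM in Vmed replicates 1, 2 and 3 and 89.4, 156 and 121 CPM in Vhigh. The fractions overlapped and the log2 fold change was 0.04 (SE 0.61). *Itga3*, another laminin receptor chain, had 59.7, 26.4 and 53.4 CPM in Vmed and 0.0938, 10.96 and 39.9 CPM in Vhigh. It was lower in Vhigh in each same-numbered pair, but the Vhigh value of replicate 3 was above the Vmed value of replicate 2. Its log2 fold change was -1.51 (SE 1.45). *Itga7* was without a count in 4 libraries.

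Of the alpha chains that bind the RGD motif of fibronectin and vitronectin, all 3 had a fitted level below Vmed, none past the threshold. *Itga5* had 16.3, 165 and 237 CPM in Vmed and 40.9, 65.0 and 166 CPM in Vhigh. Replicate 1 was the lowest in both fractions, and the log2 fold change of -0.63 (SE 0.89) was within the spread and turned to 0.035 without Vmed replicate 3. *Itgav* had 86.3, 58.0 and 26.2 CPM in Vmed and 89.1, 47.1 and 6.65 CPM in Vhigh. The order was the same in both fractions, with replicate 1 the highest and replicate 3 the lowest, and the log2 fold change was -0.26 (SE 0.99). *Itga8*, best known from kidney and smooth muscle, had 8.70, 24.0 and 7.41 CPM in Vmed and 0, 17.3 and 4.15 CPM in Vhigh, lower in Vhigh in each pair.

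*Itga4* encodes the chain of VLA-4, the receptor by which blood progenitors bind VCAM-1. It lies on chromosome 2 from 79255426 to 79333123. It had 38.0, 43.0 and 20.3 CPM in Vmed replicates 1, 2 and 3 and 13.7, 153 and 134 CPM in Vhigh. Replicates 2 and 3 were 3.56- and 6.63-fold higher in Vhigh, while in replicate 1 Vhigh was lower, at 0.361 times Vmed. The log2 fold change of 1.49 (SE 0.87, unadjusted p = 0.124) therefore did not exceed the spread between replicates. It was 1.99 without Vhigh replicate 1, with an unadjusted p under 0.05 in that fit, and 1.11 (SE 0.86) with the replicate block. The exons of *Itga4* share 1124 bases with *Cerkl*. *Itga9*, its closest relative, had 12.5, 101 and 39.1 CPM in Vmed and 68.0, 65.3 and 24.8 CPM in Vhigh, with a log2 fold change of 0.05 (SE 0.92). The pair of genes thus differed in that *Itga4* was higher in Vhigh in replicates 2 and 3 and *Itga9* in replicate 1, a difference that was not tested.

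The collagen receptor chains were low. *Itga1* had 36.4, 4.22 and 28.3 CPM in Vmed and 0, 9.94 and 46.1 CPM in Vhigh, and *Itga2* had 7.09, 3.50 and 20.6 CPM in Vmed and 25.4, 11.6 and 11.6 CPM in Vhigh. Neither separated the fractions, and the log2 fold changes were -0.35 (SE 1.80) and 0.63 (SE 1.43). *Itga11* stayed at or under 5.16 CPM. *Itga10* had 151 counts in Vhigh replicate 1 (14.2 CPM) and at most 9 counts in any other library.

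The leukocyte alpha chains pair with *Itgb2*, apart from *Itgae*, which pairs with *Itgb7*. *Itgal*, the chain of LFA-1, had 0, 3.01 and 11.6 CPM in Vmed and 0.0938, 19.7 and 26.7 CPM in Vhigh. Vhigh was higher in each pair, although in replicate 1 this rests on 1 count against 0, and the log2 fold change was 1.58 (SE 2.17). *Itgam*, the CD11b of macrophages and granulocytes, had 22.7, 5.91 and 0 CPM in Vmed and 14.4, 25.1 and 9.89 CPM in Vhigh, with a log2 fold change of 0.70 (SE 1.86). *Itgax* (CD11c) had no count in Vmed and in Vhigh replicate 1, and 6 and 44 counts in Vhigh replicates 2 and 3, so that its mean in Vhigh was at least 4.15-fold higher than the 3-count limit in Vmed. *Itgae* stayed at or under 3.62 CPM.

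The macrophage markers were uneven across the fractions. Of the 14, 6 (*Mrc1*, *Cx3cr1*, *C1qa*, *C1qb*, *C1qc* and *Timd4*) had every Vhigh library below every Vmed library, against 4.71% of all tested genes. *Mrc1*, which encodes the mannose receptor, had 86.4, 224 and 151 CPM in Vmed and 14.5, 26.1 and 5.98 CPM in Vhigh. The other 8 overlapped, and *Lyve1*, *Lyz2* and *Fcgr3* had log2 fold changes of 0.24, -0.27 and -0.36. *Lyve1* had 61.9, 67.1 and 56.8 CPM in Vmed and 184, 5.34 and 17.2 CPM in Vhigh. Their part in the levels of the leukocyte integrin chains was not tested. *Ptprc*, which encodes the pan-leukocyte CD45, had 8.58, 58.2 and 51.3 CPM in Vmed and 16.04, 91.2 and 99.3 CPM in Vhigh.

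**Figure D3:**
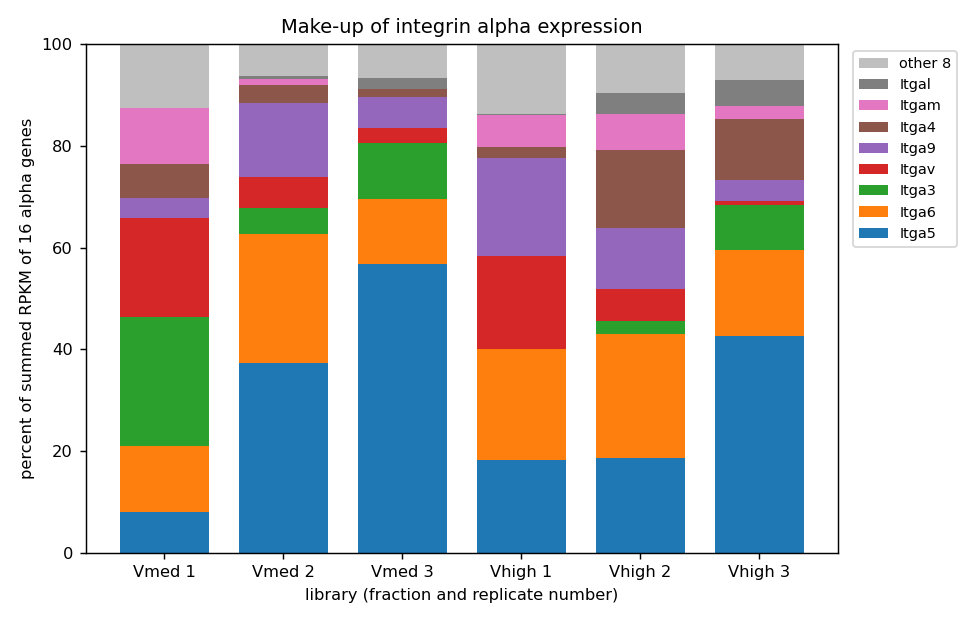
Percent of the summed RPKM of the 16 listed integrin alpha genes in each library, with 8 genes named and the other 8, *Itga2* among them, pooled in light grey. *Itga2b* is not one of the 16. *Itga5* takes 7.997% to 56.8% in Vmed and 18.2% to 42.6% in Vhigh, and *Itga4* 1.72% to 6.60% in Vmed and 2.15% to 15.4% in Vhigh, so the ranges of the fractions overlap for both genes.

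Counter-receptors and junction molecules of the immunoglobulin type were fitted lower in Vhigh for 4 of 5 genes, with a median log2 fold change of -0.89 and none past the threshold. *F11r* encodes JAM-A, found at the tight junctions of endothelium and on blood cells, and was after *Itgb1* the most abundant of the adhesion genes per length. It had 109, 484 and 179 CPM in Vmed replicates 1, 2 and 3 and 102, 253 and 227 CPM in Vhigh, and the fractions overlapped. *Jam3*, also a marker of blood progenitors, had 38.7, 123 and 81.4 CPM in Vmed and 138, 102 and 79.7 CPM in Vhigh. Its log2 fold change was 0.40 (SE 0.63), and it was higher in Vhigh in replicate 1 only.

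*Icam1*, the endothelial ligand of LFA-1 that inflammatory signals induce, had 7.21, 126 and 180.0 CPM in Vmed and 31.0, 48.8 and 90.7 CPM in Vhigh. Vhigh was lower in replicates 2 and 3 and higher in replicate 1, and the log2 fold change was -0.89 (SE 0.97). *Vcam1*, the ligand of VLA-4, was uneven in both fractions, with 45.9, 23.3 and 0 CPM in Vmed and 0, 17.95 and 0.166 CPM in Vhigh. Its log2 fold change of -2.14 (SE 2.36) reached -7.98 without Vhigh replicate 2. *Jam2* stayed at or under 5.61 CPM.

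The 2 intracellular activators were expressed in each library, and replicate 1 was the lowest in both fractions. *Tln1*, talin, had 31.6, 323 and 480.1 CPM in Vmed and 61.6, 347 and 493 CPM in Vhigh. *Fermt3*, the kindlin of blood cells, had 59.6, 286 and 189.5 CPM in Vmed and 119, 237 and 197 CPM in Vhigh. Vhigh of replicate 1 was 1.95-fold (*Tln1*) and 1.99-fold (*Fermt3*) above Vmed, while in replicates 2 and 3 *Tln1* differed 1.08- and 1.03-fold. Both log2 fold changes were near 0, at 0.06 (SE 0.90) for *Tln1* and 0.01 (SE 0.59) for *Fermt3*, whose sign turned with RLE normalization. The exons of *Tln1* share 360 bases with *Creb3*, and those of *Fermt3* 89 bases with *Trpt1*.

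**Figure D4:**
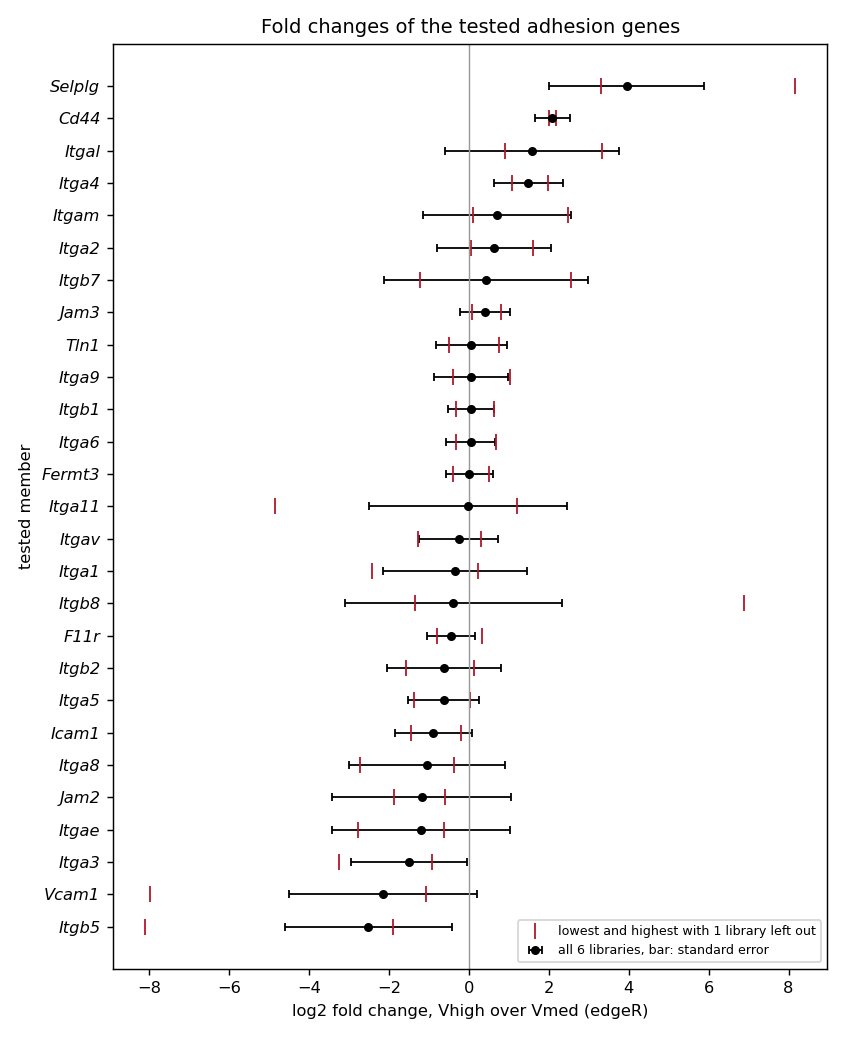
Log2 fold change of Vhigh over Vmed for the 27 tested adhesion genes with its SE, and in red the lowest and highest value when 1 library is left out. The range of *Cd44*, from 2.00 to 2.17, is narrow and far from 0, whereas 13 of the 27 genes have red marks on both sides of 0.

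For a number of adhesion genes the libraries lay together by replicate number. Measures of the libraries did so too. *Rn45s*, a ribosomal RNA gene, took 10.5% and 7.47% of gene counts in Vmed and Vhigh of replicate 3 and 0.887% to 1.53% in the other 4 libraries. Reads on no gene were 15.5% and 13.6% of those on a gene or on none in replicate 3, 49.4% and 60.9% in replicate 2 and 39.9% and 39.3% in replicate 1. Their part in the pattern was not tested. Both libraries of replicate 1 were below the other 4 for 7 of the 27 tested genes (*F11r*, *Fermt3*, *Icam1*, *Itga5*, *Itga6*, *Itgal* and *Tln1*), which is 25.9% against 21.2% of all tested genes. Both libraries of replicate 2 were above the other 4 for 7 genes (25.9%, against 10.2% of all), among them *Fermt3*, *F11r*, *Itga6* and *Itgb2*. Both of replicate 3 were above for *Itga5*, *Itgb1* and *Tln1* (11.1%, against 15.4%), and below for *Itgav* alone (3.70%, against 12.3%). Between same-numbered libraries the direction was shared by all 3 pairs for 8 of the 27 genes (29.6%, against 30.6% of all tested genes). *Cd44*, *Selplg*, *Itgal* and *Tln1* were higher in Vhigh in each pair, and *Itga3*, *Itga8*, *Itgae* and *Itgb5* lower. The median log2 ratio of Vhigh to Vmed over the tested adhesion genes was -0.10, -0.27 and 0.04 in replicates 1, 2 and 3, and over all tested genes -0.38, 0.18 and 0.04.

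Within a fraction, the highest library exceeded the lowest by a median of 4.44-fold over the 21 adhesion genes with counts in all Vmed libraries, and by 2.93-fold over the 18 with counts in all Vhigh libraries. *Cd44* had the smallest such range in both fractions, 1.20-fold in Vmed and 1.26-fold in Vhigh. In Vhigh the largest range was that of *Itga3*, 425-fold, which comes from the single count in replicate 1. Without both libraries numbered 1, a choice made after the values were seen, *Cd44* had a log2 fold change of 2.09, *Itga4* of 2.12, *Selplg* of 2.78 and *Itgb5* of -1.96, and no gene passed the threshold.

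Other genes of the adhesion pathway were taken from a list of 61 that holds none of the 34, of which 56 were tested. Fitted levels were higher in Vhigh for 23 and lower for 33, with a median log2 fold change of -0.50, against -0.02 over all tested genes. None passed an adjusted p of 0.05 in the quasi-likelihood test. At an unadjusted p under 0.05 in that test there were 4 (7.14%, against 2.04% of all tested genes). The 23 genes of integrin activation and of the adhesion plaque were balanced, with 10 of 21 tested higher, 11 lower and a median of -0.05. Among the ligands of integrins, 12 of 15 were lower and the median was -0.97. *Fn1*, fibronectin, was the most abundant with 323, 1211 and 536 CPM in Vmed and 204, 634 and 527 CPM in Vhigh. It was lower in Vhigh in each pair, though hardly in replicate 3, and the log2 fold change was -0.65 (SE 0.57). *Lamb1*, a laminin chain, had 62.8, 492 and 306 CPM in Vmed and 7.60, 65.4 and 155 CPM in Vhigh. In the likelihood ratio test with the replicate block its adjusted p was 0.0354. *Icam4*, an ICAM of red cell precursors, had no count in Vmed and 51.7, 3.96 and 3.24 CPM in Vhigh, a mean at least 58.1-fold higher than the 3-count limit in Vmed. Summed erythroid markers had 188 to 602 CPM in Vmed and 101 to 233 CPM in Vhigh, with 5 of 6 tested lower in the fit.

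Of the other selectin-related genes, 6 of 10 tested were fitted higher and 4 lower. *Cd34*, a sialomucin of progenitors and endothelium, had 304, 611 and 739 CPM in Vmed and 435, 971 and 1501 CPM in Vhigh, higher in Vhigh in each pair with overlapping fractions. *Emcn*, the sialomucin endomucin of endothelium, had 465, 951 and 869.5 CPM in Vmed and 358, 173 and 360.3 CPM in Vhigh, with every Vhigh library lower. Its log2 fold change was -1.34 (SE 0.50, unadjusted p = 0.0247). *Itga2b* and *Itgb3*, the fibrinogen receptor of platelets and early progenitors that also counts among the megakaryocyte markers, overlapped between fractions, with log2 fold changes of 0.53 (SE 1.17) and 0.03 (SE 1.34).

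In the immunoglobulin-type list, *Cd47*, a partner of integrins that also shields cells from phagocytes, had every Vhigh library above every Vmed library, like *Cd44*. It had 42.2, 98.1 and 137 CPM in Vmed, and 351, 269.6 and 381 CPM in Vhigh. The fitted log2 difference was 1.85 (SE 0.54) at an unadjusted p of 0.00747, with an adjusted p of 0.9998 in edgeR's quasi-likelihood test. The list had 6 of 8 genes lower in the fit. *Ncam1*, a neural and mesenchymal adhesion molecule, had 386, 274 and 74.2 CPM in Vmed and 93.0, 64.9 and 11.5 CPM in Vhigh, lower in each pair, and passed in the likelihood ratio test with the replicate block with an adjusted p of 0.00293. In that test 3 of the 56 genes passed, *Icam4*, *Lamb1* and *Ncam1*, against 0.583% of all tested genes. In the quasi-likelihood test with the same block none of the 3 passed, with adjusted p of 0.987, 0.763 and 0.565 from edgeR.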

How the data were processed

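CD31+ckit+Vmed and CD31+ckit+Vhigh cells of E10.5 AGMs gave 3 libraries each. RNA was prepared by the SMARTer protocol and sequenced as single reads. Reads were aligned to GRCm38/mm10 with Tophat/Bowtie (Bowtie 1.1.2 and HTSeq are named in the submitters' processing notes), and the authors deposited raw read counts per gene symbol without normalization. The annotation and strand setting are not given in the sources used here. Closing lines that name no gene, 55.0% to 77.2% of all counted alignments, were left out. Alignments that were not unique were 41.3% to 57.7% of the whole.

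Groups came from the sample labels. CPM were computed from each library's gene total. Fold changes came from edgeR 4.0.16 in R 4.3.3 (filterByExpr, TMM, quasi-likelihood test, fraction as the only term, Benjamini-Hochberg adjustment over 12688 genes). The fit was also run on simulated counts, which varied less between libraries than these data. Here the biological coefficient of variation, the relative spread beyond counting error, was 1.157. The simulated run therefore cannot tell how many real differences would be found at this spread. The standard error used the fitted information matrix. Exact permutation tests used log2(CPM + 0.5) over 20 arrangements. RPKM used exon-union lengths of GENCODE vM21 (GRCm38). Promoters are RefSeq sequences of GRCm38.p6.

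Deviations from the fraction means correlated across genes by 0.21, 0.21 and 0.39 in pairs of the same replicate number and by -0.29 to -0.01 otherwise. The pairing comes from the numbers in the labels, and the block was an alternative. Others were RLE and gene-total normalization, no filter, the likelihood ratio test, DESeq2 1.42.0 and leaving out each library. The study describes 3 independent experiments. The members and lists were chosen with earlier results of these data known. Values in each library were given for members with a mean of at least 10 CPM, an unadjusted p under 0.05 or fractions that do not overlap, and otherwise summaries or selected values. Lists of non-members were given by counts. In the adhesion lists, values were given for genes at an unadjusted p under 0.05 or for up to 4 of the highest level. In the cell type lists, values were given for selected genes only, and many at an unadjusted p under 0.05 were left out. *Lamb1*, *Itga2b*, *Itgb3*, *Mrc1*, *Lyve1*, *Lyz2*, *Fcgr3*, *Mpo*, *Prtn3*, *Cpa3*, *Prg2*, *S100a8*, *Rn45s* and *Ptprc* were added after their values were seen.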

Additional observations from a re-analysis of the deposited data

How the results depend on the processing

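The number of genes past an adjusted p of 0.05 was 0 of 12688 in the quasi-likelihood test, with 259 at an unadjusted p under 0.05, and 0 with RLE normalization, gene-total scaling or the replicate block in that test. It was 37 without a filter, 21 with the likelihood ratio test, 51 with DESeq2 and 74 with the replicate block in the likelihood ratio test, and 0 to 1 with single libraries left out (*Dcn*, without Vhigh replicate 1). The number of adhesion genes past the threshold was 0, and 1 (*Cd44*) with DESeq2 (adjusted p = 0.0214) and with the replicate block in the likelihood ratio test (adjusted p = 0.00293). The adjusted p of *Cd44* in the remaining settings, single libraries left out included, ranged from 0.154 to 1. The median log2 fold change of tested adhesion genes stayed between -0.19 and 0.21 under every setting. The replicate block changed no other call among them.

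The fitted direction turned in at least one setting for 15 of the 27 tested adhesion genes, none of them past the threshold in any setting, and the cause was not tested. With RLE normalization and with DESeq2 *Fermt3* had -0.009, with gene-total scaling *Itga11* had 0.15, and *Itgb8* had 4.29 and 4.86 when either edgeR test had the replicate block. Without both libraries numbered 1, added after seeing the data, the log2 fold change was 0.75 for *Itga1*, -0.15 for *Itga2*, 0.41 for *Itga11*, -0.19 for *Itga6*, -0.73 for *Itga9*, -0.21 for *Itgb1*, 7.48 for *Itgb8*, -0.24 for *Jam3* and -0.20 for *Fermt3*. With single libraries left out it ranged from -2.42 to 0.23 for *Itga1*, -0.31 to 0.68 for *Itga6*, -1.27 to 0.29 for *Itgav*, -0.40 to 1.02 for *Itga9*, -0.32 to 0.64 for *Itgb1*, -1.34 to 6.88 for *Itgb8*, -0.50 to 0.76 for *Tln1*, -0.39 to 0.50 for *Fermt3*, -4.85 to 1.20 for *Itga11*, -1.59 to 0.12 for *Itgb2*, -0.79 to 0.33 for *F11r*, -1.37 to 0.035 for *Itga5* and -1.23 to 2.57 for *Itgb7*. A count of 3 was 0.249 to 0.362 CPM, below which depth allows no comparison.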
